A study of Arabidopsis thaliana with 64 samples.

Results

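CCA1, LHY and the 8 REVEILLE genes (RVE1 to RVE8) of Arabidopsis thaliana form 1 family of single-MYB transcription factors, and they were followed in every library of a study of the thermosensor protein ELF3. The 10 genes were taken by locus (CCA1 AT2G46830, LHY AT1G01060, RVE1 AT5G17300, RVE2 AT5G37260, RVE3 AT1G01520, RVE4 AT5G02840, RVE5 AT4G01280, RVE6 AT5G52660, RVE7 AT1G18330 and RVE8 AT3G09600) out of 32833 loci in each count file. Of these, 9 passed the filter on low counts and were tested among 19587 loci. RVE3 did not pass it and was described only.

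RNA was measured as 3' end read counts in 38 libraries of pooled whole seedlings, 10 days old, in 8 h of light and 16 h of dark. Seedlings of 3 libraries grew at 12 °C, 15 at 22 °C and 20 at 27 °C, and all lines carry the cultivar label Col-0. The elf3-1 and elf4-2 lines, mutant in ELF3 or ELF4, were each sequenced alone and crossed to an overexpressor of the other protein, giving elf3-1 X ELF4-ox for the first and elf4-2 X ELF3-ox for the second. Overexpressors were ELF3-ox, ELF4-ox, BdELF3-ox and StELF3-ox. Transgenes with the ELF3 promoter were ELF3pro::BdELF3 and ELF3 with a polyglutamine stretch of a stated length, namely ELF3pro::ELF3-Q21 (lines #7 and #23), ELF3pro::ELF3-Q7 (#6 and #17) and ELF3pro::ELF3-Q0 (#2 and #15). Wild-type Col-0 completed the 16 lines. Which promoter drove the overexpressors, and which ELF3 allele the transgenic lines carried at the native locus, are not given in the labels. Most of the 33 combinations of line and temperature had 1 library (29), 3 had 2 and 1 had 3, and every one is labelled single. The p-values measure the spread of libraries around a model that adds effects of line, temperature and number prefix of the sample title. That spread may be technical. It also holds temperature responses that differ between lines, since replicates account for at most 5 of the 17 residual degrees of freedom. The sources used here do not give the hour of harvest of the RNA samples, and the 10 genes belong to a clock whose transcripts cycle over the day. ChIP peak lists came from 23 pull-downs with antibodies to a protein tag and from 2 INPUT samples. Seedlings for ChIP were also 10 days old and grew in short days, at 17 or 22 °C; they stayed there, or were moved at ZT8, 8 h after lights on, to 27 °C for 2 h, so 27 °C in a ChIP list means this short shift and not growth in the warm. The pull-downs were of ELF3pro::ELF3-MYC elf3-1 and its cross to ELF4-ox (17 and 27 °C), ELF3pro::BdELF3 and ELF3pro::ELF3-BdPrD (17, 22 and 27 °C), and ELF3pro::ELF3-Q20, ELF3pro::ELF3-Q15, ELF3-ox and BdELF3-ox (22 and 27 °C). StELF3-ox is labelled 22 °C in both of its lists, but the deposited name of replicate 2 carries 27 °C, so the temperature of that list is in doubt. The INPUT samples were Col-0 at 17 °C and ELF3-OX at 27 °C.

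CCA1 and LHY are morning-phased repressors at the core of the plant clock, which bind the evening element in the promoters of evening genes. RVE8, RVE4 and RVE6 bind the same element but activate those genes, with the LNK proteins as coactivators, and RVE3 and RVE5 are their closest relatives. RVE1, RVE2 (also called CIR1) and RVE7 (also called EPR1) make up a further branch, in which RVE1 links the clock to auxin synthesis through YUC8. ELF3, ELF4 and LUX form the evening complex, which represses its target genes at night, and PRR proteins repress CCA1 and LHY during the day.

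Libraries held 4381010 to 25649275 gene counts (median 12076203), so that 3 reads, the limit that a count of 0 allows, corresponded to 0.117 to 0.685 CPM. CPM is the count relative to the library's total, scaled here with TMM factors; log2 differences are fitted values, and adjusted p are Benjamini-Hochberg values over all tested loci. The targeted genes were as follows. ELF4 had 29.4 to 38.1 CPM in the elf4-2 and elf4-2 X ELF3-ox libraries and 59.8 to 67.4 CPM in Col-0, and 95.4 to 121 CPM in the ELF4-ox and elf3-1 X ELF4-ox libraries. ELF3 had 17.5 to 26.6 CPM in the elf3-1 and elf3-1 X ELF4-ox libraries and 17.2 to 29.9 CPM in Col-0, so 3' counts do not check the elf3-1 allele. In ELF3-ox it had 9.41 CPM at 12 °C, 37.2 CPM at 22 °C and 35.1 CPM at 27 °C. The library labelled ELF3-ox 12 °C thus did not show a raised ELF3 level. The other 12 °C libraries had 8.32 and 8.99 CPM, and no Col-0 library grew at 12 °C. At 27 °C, ELF3-ox lay within the range of lines of the same number prefix without an ELF3 transgene. These had 35.6 CPM (elf4-2), 32.0 CPM (ELF4-ox), 26.6 CPM (elf3-1) and 25.4 CPM (elf3-1 X ELF4-ox). Among the 27 °C libraries, ELF3pro::BdELF3 and the replicate numbered 2 of BdELF3-ox stood apart, with summed levels of 8 root marker genes of 2.11 and 1.45 CPM, where the other 36 had at least 131 CPM. In bulk seedlings, fewer cells of a type and less RNA per cell cannot be told apart.

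CCA1 and RVE3 lay near the count floor, which was set at under 1 CPM in more than 19 of the 38 libraries. For this floor, and for each count of libraries under or at 1 CPM below, CPM was taken without TMM factors. The levels printed are TMM-scaled. CCA1 was under 1 CPM in 29 libraries, with 0 to 31 reads and a median of 6. RVE3 was under 1 CPM in 37 libraries, with no read in 8 of them and 3 reads or fewer in 28. Its one high value, 34 reads or 1.58 CPM, came from ELF3pro::ELF3-Q0 #15 27 °C replicate 2. LHY (2 to 95 reads, under 1 CPM in 13 libraries) and RVE8 (1 to 55 reads, under 1 CPM in 8) were low but above this floor, and RVE7 was under 1 CPM in 3 libraries. RVE1, RVE2, RVE4, RVE5 and RVE6 reached 1 CPM in all 38. Over all libraries the level of RVE4 ranged from 22.4 to 151 CPM with a median of 60.2, that of RVE2 from 7.13 to 72.1 with a median of 31.4, and that of RVE1 from 1.13 to 18.05 with a median of 4.11. RVE5 (7.00 to 25.5 CPM) and RVE6 (7.34 to 20.2 CPM) varied least. AT3G10113, taken as a close copy of RVE7 though sequences were not compared here, had 3 reads in all 38 libraries together. Reads that fit both loci would count for neither, so this does not show that the RVE7 counts are complete.

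**Figure D1:**
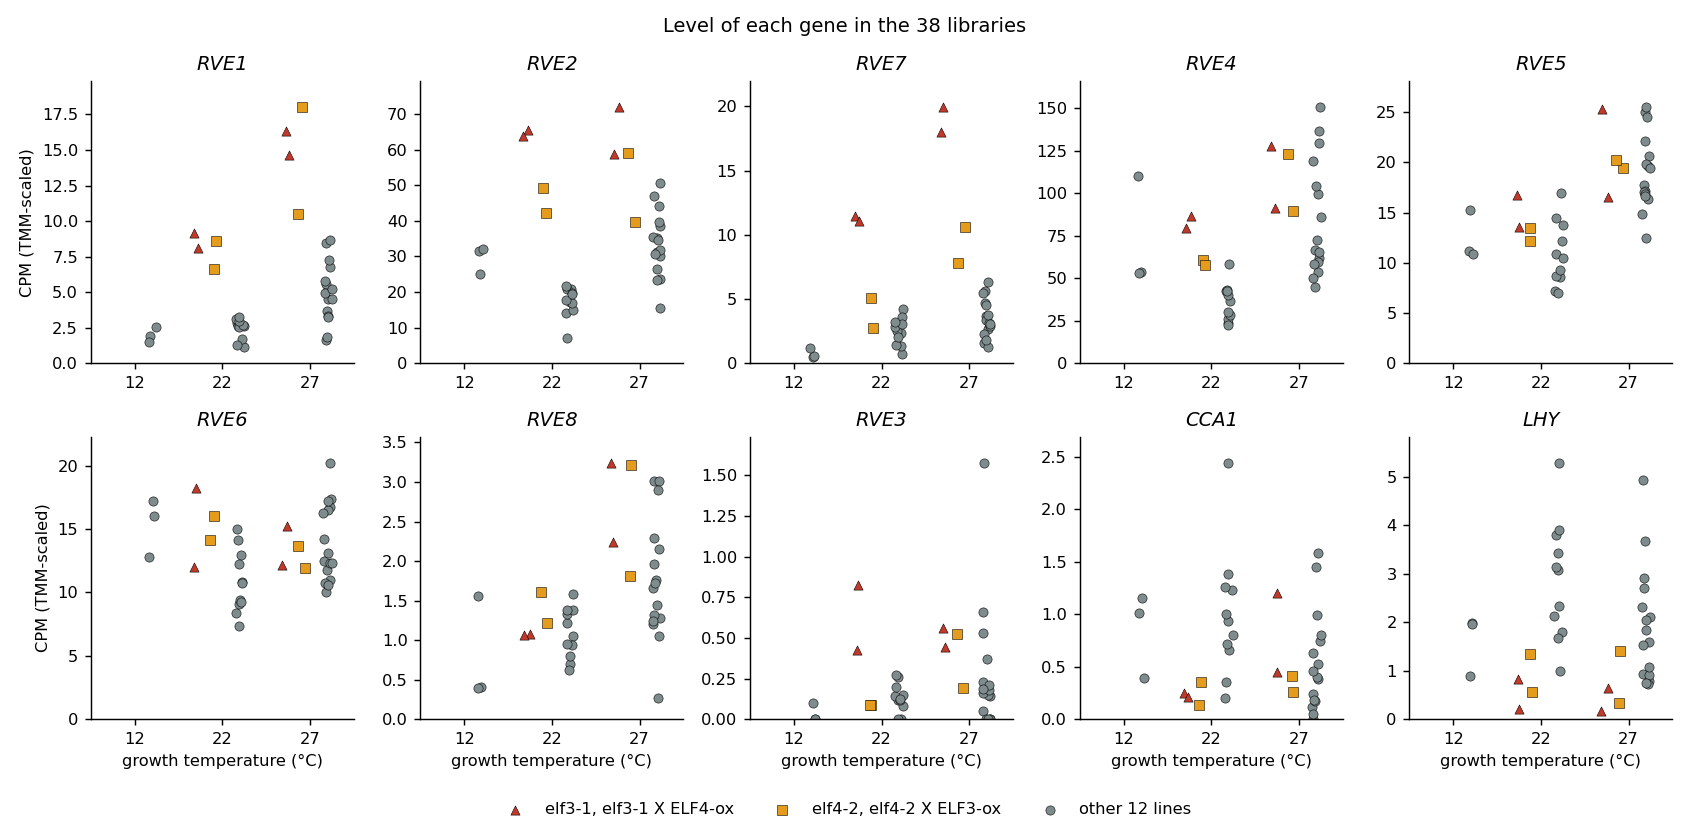
Level of each gene in TMM-scaled CPM (vertical axis, linear, starting at 0) against growth temperature (°C) in the 38 libraries. Triangles are elf3-1 and elf3-1 X ELF4-ox, squares elf4-2 and elf4-2 X ELF3-ox, circles the other 12 lines. RVE7 lies at 11.1 to 20.0 CPM in the elf3-1 and elf3-1 X ELF4-ox libraries, while CCA1 and RVE3 stay near the floor.

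The branch of RVE1, RVE2 and RVE7 was higher without functional ELF3, and LHY was lower. The 4 libraries of elf3-1 and elf3-1 X ELF4-ox were set against the 5 libraries of Col-0 and ELF4-ox. RVE7 had 20.0 CPM at 27 °C and 11.1 CPM at 22 °C in elf3-1, and 18.01 and 11.5 CPM at the same temperatures in elf3-1 X ELF4-ox. In Col-0 it had 5.50 and 3.16 CPM at 27 °C and 3.26 CPM at 22 °C, and in ELF4-ox 2.28 and 2.81 CPM. Every library with elf3-1 therefore lay above every library it was set against, and above each of the 31 other libraries at 22 and 27 °C, the highest of which had 10.6 CPM. The share of all loci separated in this way from those 31 libraries was not computed. The fitted log2 difference of RVE7 was 2.32 ± 0.42 (SE), a 4.99-fold higher level, with an adjusted p of 0.00253 (edgeR quasi-likelihood test).

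RVE2, of the same branch, was also separated without overlap. It had 72.1 CPM at 27 °C and 63.7 CPM at 22 °C in elf3-1, and 58.8 and 65.4 CPM in elf3-1 X ELF4-ox. The libraries it was set against held 50.6, 35.3 and 21.7 CPM in Col-0 (27, 27 and 22 °C) and 31.3 and 17.1 CPM in ELF4-ox (27 and 22 °C). Its log2 difference was 1.33 ± 0.23 (SE; adjusted p 0.0017, edgeR). RVE1 had 16.4, 8.09, 14.6 and 9.16 CPM in the elf3-1 libraries, against 8.70, 4.51 and 3.26 CPM in Col-0 and 3.70 and 3.10 CPM in ELF4-ox. Here 3 of the 4 libraries lay above all 5 others and the fourth below the highest of them. Its log2 difference was 1.62 ± 0.32 (SE; adjusted p 0.00544, edgeR).

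LHY was the only gene among the 9 tested that was called lower. It had 2 reads in each elf3-1 library (0.160 and 0.213 CPM at 27 and 22 °C) and 10 and 13 reads in elf3-1 X ELF4-ox (0.636 and 0.827 CPM). In Col-0 it had 9, 14 and 17 reads (1.60, 0.725 and 2.13 CPM), and in ELF4-ox 11 and 25 reads (0.784 and 1.80 CPM). The groups overlapped through 1 library, and the log2 difference was −2.10 ± 0.45 (SE; adjusted p 0.0088, edgeR). CCA1 had 2 to 15 reads in the elf3-1 libraries and 1 to 14 reads in the others, and no difference was detectable at this depth (log2 −0.41 ± 0.68).

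In the RVE8 branch, no gene passed the test after loss of ELF3. RVE4 averaged 96.1 ± 21.6 CPM in the 4 elf3-1 libraries and 89.4 ± 50.4 CPM in the 5 others (SD). Its log2 difference at matched temperature was 0.61 ± 0.20 (SE, adjusted p 0.11, edgeR). In 1 alternative setting RVE4 was called higher. RVE5, RVE6 and RVE8 had log2 differences of 0.05 to 0.29. RVE3, untested, had 4 to 13 reads (0.426 to 0.827 CPM) in the elf3-1 libraries and 1 to 4 reads (0.125 to 0.207 CPM) in the others. The ranges of reads met at 4, and these levels lie near the limit set by a few reads.

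In all, 3 of 9 tested genes were higher and 1 was lower. Over all tested loci 3.07% were called, 1.85% higher and 1.23% lower, and the median log2 difference was −0.02, against 0.29 for the family. Groups that did not overlap were found for 2.65% of loci in the upward direction and 2.6% in the downward direction. Set against Col-0 alone, elf3-1 left LHY as the only member called (log2 −3.43 ± 0.71, adjusted p 0.0243, edgeR), where 0.699% of loci were called, 0.403% higher and 0.296% lower. In turn, elf3-1 X ELF4-ox against ELF4-ox alone left none, with 4 members at an unadjusted p under 0.05 and 0.684% of loci called (0.449% higher, 0.235% lower). The log2 differences of RVE7, RVE1 and RVE2 were 2.17, 1.47 and 1.22 for elf3-1, and 2.46, 1.76 and 1.43 for elf3-1 X ELF4-ox. LHY had −3.43 and −0.78 in these fits. The difference between the 2 values of LHY was 2.64 ± 0.92 and did not pass the test (adjusted p 0.988, edgeR). The call of LHY was lost on leaving out either elf3-1 library, elf3-1 X ELF4-ox 22 °C or ELF4-ox 22 °C (adjusted p 0.0523 to 0.0878), and that of RVE1 on leaving out ELF4-ox 27 °C (0.0734). Summed root markers were 296 to 401 CPM in the 4 elf3-1 libraries and 240 to 361 CPM in the 5 others, and 1 of the 8, AGP30, was itself called higher (2.36 ± 0.45). Their part in these results was not tested.

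**Figure D2:**
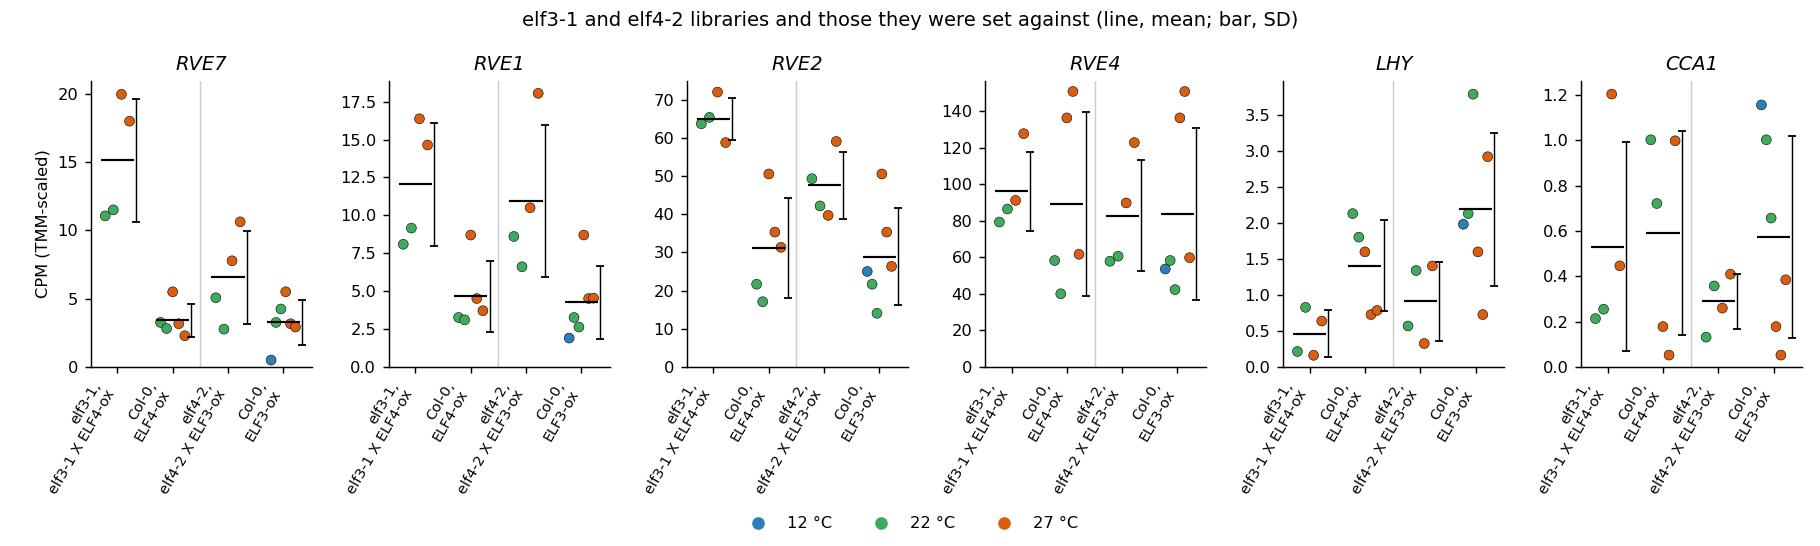
Levels in TMM-scaled CPM (vertical axis, linear) of 6 genes in single libraries, coloured by growth temperature, with the mean (line) and SD (bar). In each panel, elf3-1 with elf3-1 X ELF4-ox stands left of Col-0 with ELF4-ox, and elf4-2 with elf4-2 X ELF3-ox left of Col-0 with ELF3-ox. RVE7 lies between 11.1 and 20.0 CPM in the 4 elf3-1 libraries and at 5.50 CPM or less in the 5 beside them.

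No member passed the adjusted threshold after loss of ELF4. The 4 libraries of elf4-2 and elf4-2 X ELF3-ox were set against 6 of Col-0 and ELF3-ox. RVE1 had 10.5 CPM at 27 °C and 8.60 CPM at 22 °C in elf4-2, and 18.05 and 6.60 CPM in elf4-2 X ELF3-ox. ELF3-ox had 1.90, 2.63 and 4.53 CPM at 12, 22 and 27 °C, and Col-0 8.70, 4.51 and 3.26 CPM. The log2 differences were 1.52 ± 0.36 for RVE1, 1.09 ± 0.26 for RVE2 and −1.90 ± 0.43 for LHY (SE), with adjusted p of 0.0929, 0.107 and 0.071 in edgeR. RVE7 had 0.89 ± 0.47 (adjusted p 0.708) and RVE4 0.48 ± 0.23 (0.669). CCA1, RVE5, RVE6 and RVE8 lay between −0.90 and 0.16. Across all loci 0.214% were called (0.112% higher, 0.102% lower), and 4 of the 9 genes had an unadjusted p under 0.05. DESeq2 called RVE1, RVE2 and LHY (adjusted p 0.0133, 0.0136 and 0.0148), as did edgeR without the 2 libraries low in root markers (0.0146, 0.0484 and 0.0323). The 0.214% belongs to the reported fit, and the shares of all loci called in these 2 alternatives are not given here. Without the ELF3-ox 12 °C library edgeR called 0. Root markers summed to 259 to 316 CPM in the 4 elf4-2 libraries and 161 to 390 CPM in the 6 others, and AGP30 was called higher (2.76 ± 0.52); their part was not tested. That the loss of ELF3 passed a threshold which the loss of ELF4 missed does not show that they differ; that difference was not tested, and both share the Col-0 libraries.

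Ordered by level at 22 °C, the 15 lines placed the 4 mutant lines first for RVE1 and RVE2. RVE1 was at 9.16 CPM in elf3-1 X ELF4-ox, 8.60 in elf4-2, 8.09 in elf3-1 and 6.60 in elf4-2 X ELF3-ox, and then at 3.26 CPM in Col-0 and 3.10 in ELF4-ox. The step between elf4-2 X ELF3-ox and Col-0 was the widest in that order, 0.84 in log2(CPM + 1), and exceeded the 0.50 SD of replicate libraries. Replicates existed only at 27 °C, in BdELF3-ox, Col-0, ELF3pro::ELF3-Q0 #15 and ELF3pro::ELF3-Q21 #7, most of them of different title prefixes. The SD therefore rests on 5 degrees of freedom and on no library at 22 °C. The other 13 neighbouring pairs differed by less than that SD. For RVE2 the same step, between 42.2 CPM in elf4-2 X ELF3-ox and 21.7 CPM in Col-0, measured 0.93 against an SD of 0.26, and 11 of 14 neighbouring pairs differed by less than the SD. RVE7 followed another order at 22 °C, with 11.5 CPM in elf3-1 X ELF4-ox and 11.1 in elf3-1, then 5.07 in elf4-2 and 4.24 in ELF3-ox. Its widest step lay between elf3-1 and elf4-2 (0.99, SD 0.41), and elf4-2 X ELF3-ox was among the lower lines with 2.77 CPM. The 4 mutant lines held the 4 highest places at 22 °C for 1.25% of tested loci, and at 27 °C, where this applied to RVE1 and RVE7, for 0.848%. These orders were singled out after the values were seen. For RVE4, RVE6, RVE8, RVE3 and LHY at 22 °C no neighbouring lines differed by more than the SD.

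Most of the family had higher levels in the warm-grown libraries. At 27 °C, 6 of 9 tested genes were higher than at 22 °C and none lower, where 34.3% of all tested loci were called, 17.7% higher and 16.7% lower. Among the RVE1 branch, RVE1 rose by 1.08 ± 0.18, RVE2 by 0.81 ± 0.13 and RVE7 by 0.72 ± 0.24 (log2 ± SE; adjusted p 0.000134, 7.05e-05 and 0.0255, edgeR). In the RVE8 branch, RVE4 rose by 0.87 ± 0.11, RVE8 by 0.86 ± 0.17 and RVE5 by 0.67 ± 0.10 (adjusted p 6.36e-06, 0.000488 and 2.14e-05, edgeR). RVE6 (0.13 ± 0.10), CCA1 (−0.26 ± 0.36) and LHY (−0.40 ± 0.20, adjusted p 0.117) did not pass. The family's median was 0.72, against 0.01 for all tested loci.

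RVE4, an activator of evening genes, had 44.7 to 151 CPM with a median of 87.9 in the 20 libraries at 27 °C, and 22.4 to 86.4 CPM with a median of 42.3 in the 15 at 22 °C. It was higher at 27 °C in 14 of 14 lines, by 0.20 to 1.53 in log2(CPM + 1). RVE1 was also higher in all 14, from 0.18 in ELF3pro::ELF3-Q0 #2 to 1.79 in ELF3pro::ELF3-Q21 #23, where it had 8.45 CPM at 27 °C and 1.74 CPM at 22 °C. RVE5 and RVE8 were higher in 13 of 14 lines, RVE2 in 12 and RVE7 in 11. RVE5 had 12.4 to 25.5 CPM at 27 °C (median 19.5) and 7.00 to 16.9 CPM at 22 °C (median 12.2), and 14 of the 20 warm libraries exceeded every 22 °C library. LHY was lower at 27 °C in 11 of 14 lines and CCA1 in 8. Shares of all loci with such counts of lines or of warm libraries were not computed. Nothing particular to these genes was therefore read from the counts.

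RVE2 had its 4 lowest differences between 27 and 22 °C in the 4 mutant lines, a pattern singled out after its values were seen. It had 72.1 CPM at 27 °C and 63.7 at 22 °C in elf3-1, 58.8 and 65.4 in elf3-1 X ELF4-ox, 39.7 and 49.3 in elf4-2, and 59.1 and 42.2 in elf4-2 X ELF3-ox, or −0.31 to 0.48 in log2(CPM + 1). The other 10 lines had 0.51 to 1.40. In elf3-1, elf3-1 X ELF4-ox and elf4-2 the 27 and 22 °C libraries differed in the number prefix of their sample titles. So did those of ELF4-ox, ELF3pro::ELF3-Q0 #2, ELF3pro::ELF3-Q7 #6 and ELF3pro::ELF3-Q21 #7 among the other lines. The part of the prefix was not tested, and the share of all loci with this pattern was not computed. The test of a different 27 °C response in the elf3-1 lines did not pass for RVE2 (log2 −0.67 ± 0.41, adjusted p 1, edgeR). It called no member and no locus at all, in edgeR or in DESeq2, and 247 loci had an unadjusted p under 0.05, none of them a member. Its member values ranged from −0.67 to 1.74 (CCA1, ± 1.19), and SEs of 0.31 to 1.19 accompanied them.

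In the 7 lines whose 2 temperatures shared a number prefix in the sample titles, RVE1, RVE2, RVE4, RVE5 and RVE8 were higher at 27 °C in 7 of 7 and RVE7 in 6. A fit of those lines alone called 5 of the 6 members, all but RVE7 (0.95, adjusted p 0.0993, edgeR). How many of all loci were called in that fit is not given here. Nor was the share of all loci higher in as many of the 7 lines computed. In the pair of Col-0 libraries of 1 prefix, with no test, RVE4 had 136 CPM at 27 °C and 58.2 CPM at 22 °C, and RVE1 8.70 and 3.26 CPM. Leaving out prefix 177 left 2 calls among the members, RVE4 and RVE2, and 272 over all loci; the log2 differences were then 1.40 for RVE1, 0.97 for RVE8, 0.88 for RVE7 and 0.69 for RVE5 (adjusted p 0.104, 0.17, 0.208 and 0.0673, edgeR). RVE7 also lost its call without prefix 178 (0.95, adjusted p 0.076) and without prefix 181 (0.67, 0.0925). Summed root markers spanned 1.45 to 401 CPM at 27 °C and 202 to 390 CPM at 22 °C. Without the 2 lowest libraries 6 members were called, and the share of all loci called then is not given here. Of the markers, 3 of 8 for root, 3 of 4 for leaf and both for seed were called lower at 27 °C, and their part was not tested.

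**Figure D3:**
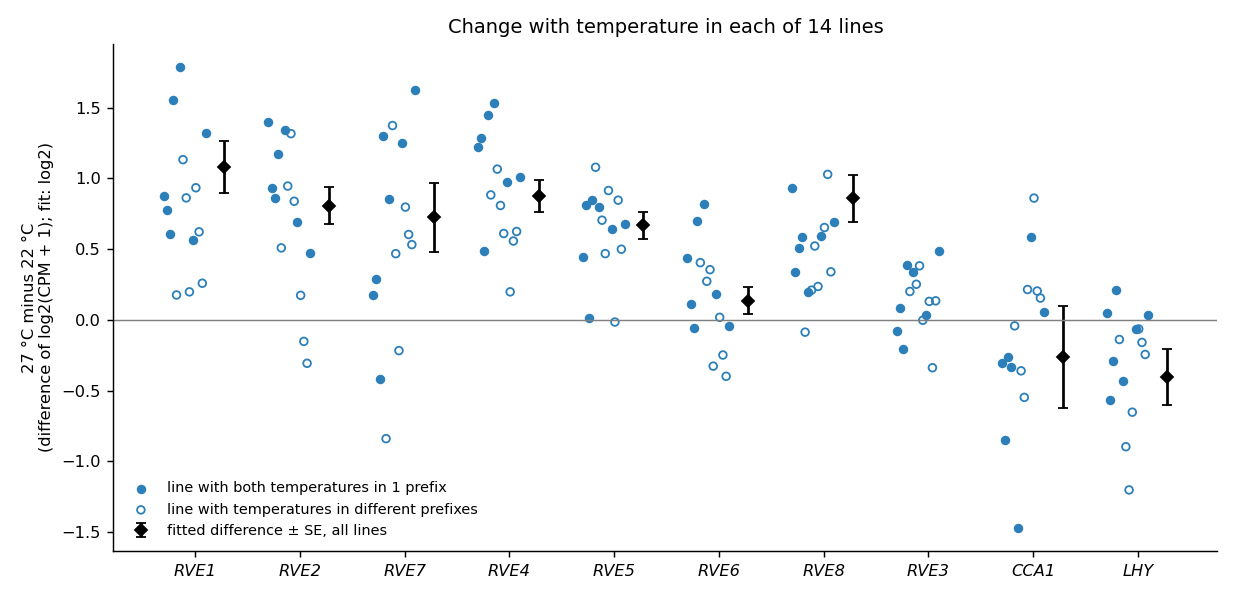
Difference between 27 and 22 °C for each gene (horizontal axis) in each of 14 lines, in log2(CPM + 1) (vertical axis); filled points are lines with both temperatures in 1 title prefix, open points the others. Diamonds are the fitted log2 difference with its SE, absent for RVE3. All points of RVE1 and RVE4 lie above 0, from 0.18 to 1.79 and from 0.20 to 1.53.

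Cold growth was sampled only in ELF3-ox, StELF3-ox and BdELF3-ox, with 1 library each, all of title prefix 184, which no 22 °C library has. RVE2 had 25.01, 31.5 and 32.1 CPM at 12 °C in these lines, and 14.04, 19.3 and 7.13 CPM at 22 °C. It was the only member called (log2 1.25 ± 0.33, adjusted p 0.0268, edgeR), where 6.09% of all loci were called, 2.63% higher and 3.45% lower. The call was lost without BdELF3-ox 12 °C (0.84, adjusted p 0.197). RVE7 had 0.495, 0.587 and 1.22 CPM at 12 °C and 4.24, 1.40 and 2.02 CPM at 22 °C, also without overlap (log2 −1.49 ± 0.68, adjusted p 0.201, edgeR); 24.1% of loci were lower without overlap in these 6 libraries and 22.1% higher. At 27 °C RVE7 had 2.92 CPM in ELF3-ox, 4.71 CPM in StELF3-ox and 1.27 to 3.36 CPM in the 3 BdELF3-ox libraries. CCA1, with 14, 4 and 15 reads in the 12 °C libraries, had a log2 difference of 2.04 ± 0.90 (adjusted p 0.19), and RVE4 had 0.22 ± 0.28. The other 5 tested members lay between −0.10 and 0.14. Root markers summed to 131 to 161 CPM in the 12 °C libraries and to 309 to 390 CPM at 22 °C in the same lines, and 1 leaf marker was called higher, 1 lower and 1 of the 2 seed markers lower at 12 °C; their part was not tested.

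In the lines labelled as overexpressors of ELF3 or ELF4, or with ELF3 exchanged, no member was called by the test used. ELF3 itself had 37.2, 35.1 and 9.41 CPM in ELF3-ox at 22, 27 and 12 °C, against 17.2 to 29.9 CPM in Col-0. At 27 °C, elf4-2 and ELF4-ox of the same title prefix had 35.6 and 32.0 CPM, and elf3-1 and elf3-1 X ELF4-ox 26.6 and 25.4 CPM. The 3' counts therefore do not show a raised ELF3 level in ELF3-ox at 27 °C. ELF3-ox against Col-0 gave log2 differences of −0.58 (RVE2, ± 0.34) to 0.34 (LHY, ± 0.53), and ELF4-ox against Col-0 −1.05 (LHY, ± 0.64) to 0.85 (CCA1, ± 1.09). BdELF3-ox against ELF3-ox ranged from −0.58 (RVE7, ± 0.63) to 0.81 (RVE8, ± 0.41), and StELF3-ox against ELF3-ox from −1.04 (LHY, ± 0.53) to 0.11 (RVE6, ± 0.25). Over all loci edgeR called 6, 1, 0 and 0 in these comparisons (0.0306%, 0.00511%, 0.0% and 0.0%) and DESeq2 10, 2, 3 and 1. Members with an unadjusted p under 0.05 numbered 0 in each. A p above the threshold does not show that levels were alike.

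The length of the polyglutamine stretch was compared between 5 libraries of ELF3pro::ELF3-Q21 and 5 of ELF3pro::ELF3-Q0. These lines carried more ELF3 reads than Col-0, 37.0 to 118 CPM in Q21 and 83.0 to 351 CPM in Q0 libraries, against 17.2 to 29.9 CPM. Differences of the family lay between −0.04 (LHY, ± 0.31) and 0.64 (RVE7, ± 0.46), 8 of 9 above 0, and none passed the test, with 0 at an unadjusted p under 0.05. Over all loci 3 were called by edgeR (0.0153%; 0.0102% higher, 0.00511% lower) and 9 by DESeq2. RVE7 had 6.37, 5.59 and 4.54 CPM at 27 °C and 3.08 and 1.33 CPM at 22 °C in Q21, and 2.65, 3.76 and 1.58 CPM at 27 °C and 0.694 and 3.61 CPM at 22 °C in Q0. At 22 °C, and over both temperatures, the ranges overlapped. At 27 °C the 3 Q21 libraries lay above the 3 Q0 libraries. The share of all loci separated in this way was not computed, so nothing particular to RVE7 was read from it.

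Partners and targets of the family were taken from lists of 4 LNK coactivators, 6 repressors of CCA1 and LHY, 8 evening-phased targets, 3 cold targets and 2 outputs of RVE1. After loss of ELF3 all 4 LNK genes were higher, LNK3 by 4.77 ± 0.77, LNK4 by 3.89 ± 0.53, LNK1 by 3.61 ± 0.59 and LNK2 by 1.82 ± 0.48 (log2 ± SE; adjusted p 0.000732, 0.000113, 0.000768 and 0.0401, edgeR), where 1.85% of all tested loci were higher. In the single arms, 1 of the 4 was called for elf3-1 against Col-0 and 3 of 4 for elf3-1 X ELF4-ox against ELF4-ox. Of 5 tested repressors, PRR7 (3.19 ± 0.45) and PRR3 (1.67 ± 0.31) were higher. Of 8 evening targets, GI (4.88 ± 0.65) and LUX (2.06 ± 0.26) were higher and COR27 (−0.85 ± 0.18) was lower. YUC8, the auxin synthesis gene downstream of RVE1, was higher by 1.56 ± 0.39 (adjusted p 0.0258, edgeR), while PORA did not pass. CBF2, the 1 tested cold target, did not pass either. List medians were 3.75 for the LNK genes, 0.30 for the repressors and 0.16 for the evening targets, against −0.02 for all tested loci. After loss of ELF4, LUX was higher by 1.77 ± 0.28 and ELF4 itself was lower (−0.98 ± 0.18).

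At 27 °C, PRR5 (0.47 ± 0.15), TOC1 (0.49 ± 0.12), LUX (0.89 ± 0.14), BOA (0.56 ± 0.07), FKF1 (0.58 ± 0.09) and COR28 (0.86 ± 0.09) were higher than at 22 °C. These were 2 of 5 repressors and 4 of 8 evening targets, none lower, where 17.7% of all tested loci were higher; nothing particular to lists this short was read from these counts. In the same comparison no LNK gene, cold target or RVE1 output passed. Medians were 0.53 for the LNK genes, 0.35 for the repressors and 0.57 for the evening targets, against 0.01 for all tested loci. At 12 °C, PRR7 was higher (2.22 ± 0.61) and BOA lower (−1.66 ± 0.17) than at 22 °C.

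Over the 38 libraries the family's levels in log2(CPM + 1) were compared pair by pair. RVE1 went with RVE7 (Pearson r 0.88) and RVE2 (0.83), and RVE4 with RVE5 (0.81). CCA1 and LHY went together more weakly (0.49), and both ran against RVE4 (−0.55 and −0.58). These r are descriptions over libraries that share lines, temperature and title prefix, and CCA1 and RVE3 rest on few reads. By r among 12869 other loci of at least 5 CPM on average, the loci most like RVE1 were TPS11 (0.90), MES16 (0.87) and ZAT (0.87). Those most like RVE7 were GBF3 (0.90), PP2-A13 (0.85) and TPS11 (0.85), so TPS11 stood in both sets of 3. RVE2 was most like CDF2 (0.83), MES16 (0.81) and BGAL7 (0.79). RVE4 was most like AT1G64500 (0.92), AT1G18460 (0.89) and HCF107 (0.89), and RVE5 most like AT4G10330 (0.90), EMB3101 (0.90) and CP5 (0.89). The highest r was 0.83 for RVE6 (NRPB5), 0.79 for LHY (KAI2), 0.72 for RVE8 (AT2G38800) and 0.67 for CCA1 (AT3G03150).

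**Figure D4:**
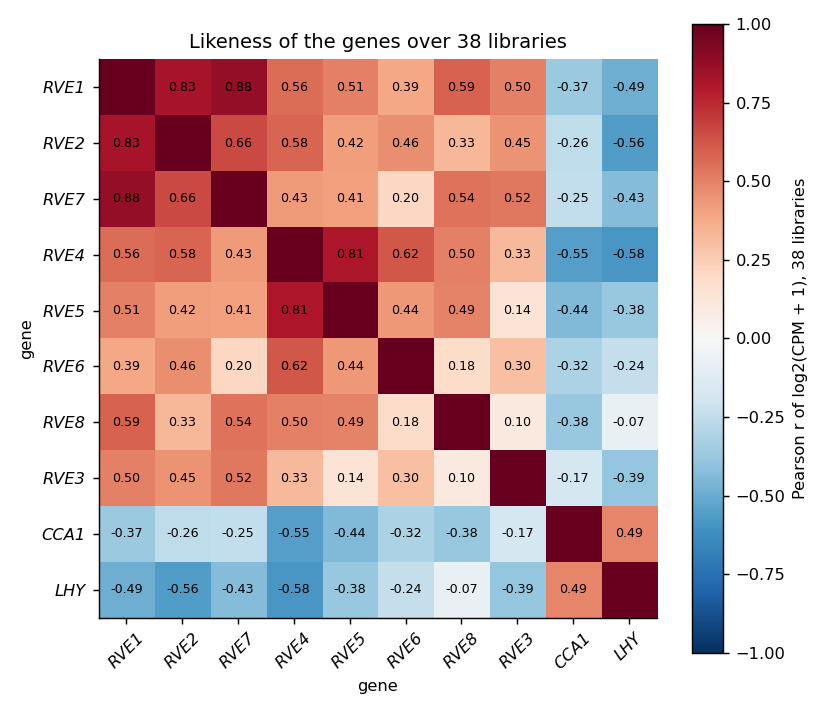
Pearson r of log2(CPM + 1) between each pair of the 10 genes over 38 libraries, from −1 (blue) to 1 (red). RVE1 with RVE7 (0.88) and with RVE2 (0.83), and RVE4 with RVE5 (0.81), are the highest pairs, and CCA1 and LHY are negative against the RVE genes.

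Among strong peaks close to the genes, tagged ELF3 had peaks near RVE7 and CCA1 in more lists than near the other members. Each list was reduced to its 2000 peaks of highest −log10 p, and a gene counted when a summit lay within it or within 1000 bp. RVE7 had such a peak in 14 of 23 pull-down lists and CCA1 in 12. RVE4 and RVE5 had one in 4, LHY, RVE1, RVE3 and RVE8 in 3, and RVE2 and RVE6 in 2. The median gene had 1 list and 44.7% of 37887 genes had none. Of these genes, 0.692% had at least 14 lists, 1.43% at least 12, 16.8% at least 4, 23.3% at least 3 and 34.5% at least 2. In a single list, 5.73% to 8.99% of genes had a kept peak nearby. Neither INPUT list had a kept peak near any member. The lead of RVE7 and CCA1 depended on these limits: within 3000 bp RVE4 also had a peak in 12 lists, beside 16 for RVE7 and 12 for CCA1, and with all merged peaks every member had one in 19 to 23 lists, RVE7 in 20 and CCA1 in 23. These presences were described with no test.

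At RVE7 the summits of the 14 lists lay between positions 6308136 and 6308250 of chromosome 1 (TAIR10). In ELF3pro::ELF3-MYC elf3-1 seedlings moved to 27 °C for 2 h (replicate 2), the RVE7 peak ranked 130 of the list with an authors' fold enrichment of 3.30. In the same line kept at 17 °C it ranked 42 (fold 10.6) and 56 (fold 7.34) in replicates 1 and 2. In the ELF3-MYC line crossed to ELF4-ox it ranked 49 (fold 6.25) at 27 °C and 42 (fold 5.72) at 17 °C. In BdELF3-ox it ranked 24 at 27 °C and 75 at 22 °C. It was not kept in either ELF3-ox list at 27 °C and ranked 1463 in the list at 22 °C. Ranks and folds depend on each list's depth and length, and no change with temperature was read from them. In replicate 1 at 17 °C the peak spanned chr1:6307958-6309097, and the neighbouring locus AT1G18335 was also within 1000 bp of the summit, as in the other lists, so that a peak cannot be assigned to 1 of the 2 genes.

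At CCA1 the peak of the ELF3-MYC line crossed to ELF4-ox ranked 94 at 27 °C; another peak, with its summit at 19245792, ranked 1625 at 17 °C. In ELF3pro::ELF3-MYC elf3-1 it was not kept at 27 °C (replicate 2) and ranked 153 and 95 at 17 °C, at chr2:19245054-19245812 in replicate 1. It was kept in both StELF3-ox lists (1097 and 310 in replicates 1 and 2, the second of doubtful temperature), in BdELF3-ox at 22 °C (150), in ELF3pro::ELF3-Q20 at 22 °C (444) and in 4 further lists at ranks of 1231 to 1960. PSI-P (AT2G46820) was near the same summits. At RVE1 the peak was kept in both 17 °C lists of ELF3pro::ELF3-MYC elf3-1 (1690 and 267) and in ELF3pro::BdELF3 at 27 °C (1669). LHY had kept peaks in BdELF3-ox (640), ELF3pro::BdELF3 (1721) and StELF3-ox (replicate 2, 520), all labelled 22 °C, and in none of the 5 ELF3-MYC lists. RVE2, called in the RNA after loss of ELF3, had kept peaks in ELF3pro::ELF3-BdPrD at 27 °C replicate 2 (1966) and ELF3pro::ELF3-Q20 at 22 °C (951) only. RVE4 had kept peaks in the ELF3-MYC line crossed to ELF4-ox at 27 °C (187) and in BdELF3-ox at 22 °C (590). At another site it had them in ELF3pro::ELF3-Q15 at 22 °C (336) and ELF3pro::BdELF3 at 17 °C (670). Other loci were also within 1000 bp of these RVE4 summits.

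**Figure D5:**
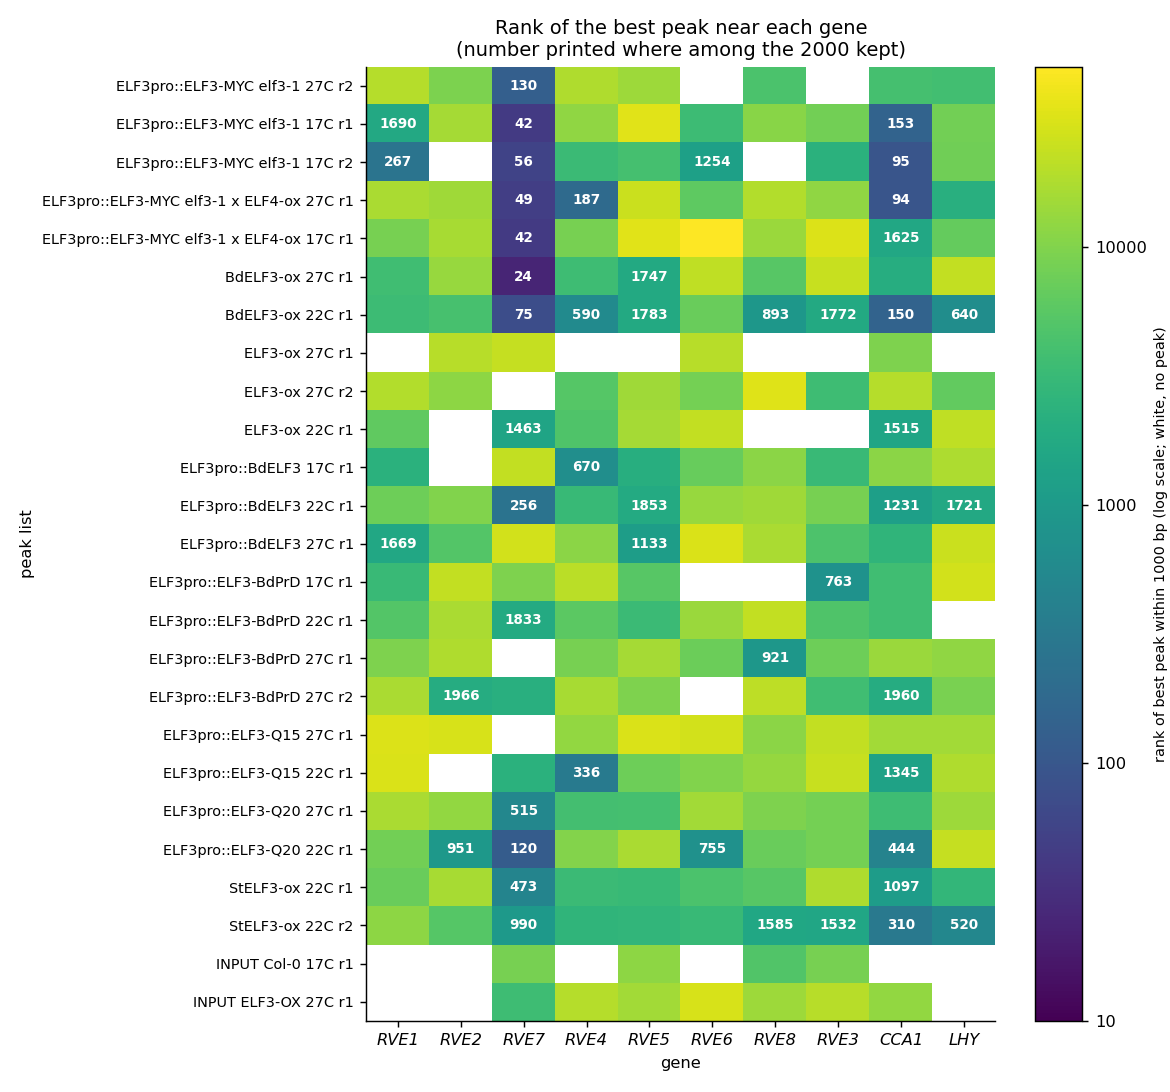
Rank of the best peak within 1000 bp of each gene (columns) in 25 peak lists (rows), colour on a log scale, white where no peak was listed; ranks are printed where among the 2000 kept. RVE7 is ranked 130 or better in all 5 ELF3-MYC lists, and the 2 INPUT lists at the bottom have no kept peak near any member.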

How the data were processed

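RNA libraries were made with a QuantSeq 3' kit, per the labels' protocols, so 1 read marks 1 transcript end. The deposited values are raw read counts per locus, made by the authors with STAR on TAIR10, per the submitters' processing notes (the sources used here do not name a counting tool). Reads not assigned to 1 locus stayed out: 2.64% to 35.1% per library mapped to several places, 2.11% to 4.90% met no locus and 0.0865% to 0.151% were ambiguous. Counts were tested in R 4.3.3 with edgeR 4.0.16 (TMM factors, quasi-likelihood test, Benjamini-Hochberg adjusted p under 0.05 over all tested loci). A locus needed at least 1 CPM, taken without TMM factors, in at least 3 libraries. The model held line, 27 °C and 12 °C against 22 °C, and the number prefix of the sample title (177, 178, 181 or 184), on 38 libraries with 17 residual degrees of freedom and a common dispersion of 0.0551. SEs follow from the F statistic. Levels are TMM-scaled CPM, and log2(CPM + 1) served for orders and correlations. DESeq2 1.42.0 and other settings were alternatives. The scripts were tested on simulated data.

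Peaks were called with MACS2, per the submitters' processing notes, and each deposited list belongs to 1 sample. The deposited lists hold the authors' fold enrichment ratio and −log10 p- and q-values, with depth unknown. Multi-summit peaks were merged and organelle peaks dropped. Symbols and neighbours come from a gene table of TAIR10.1, matched to 32548 of 32833 loci (99.1%), and no coordinates of it are given. For ELF3pro::ELF3-MYC elf3-1 at 27 °C, the first replicate was not analysed here. Group labels were taken over file names.

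The members, gene lists and tests were chosen with earlier results of these data known. Named were all members, both targeted genes, the 3 most similar loci for each tested member, and listed partners that passed the test. Counting intervals and floors cover counting error only. Libraries of 1 group were all distinct and differed beyond counting noise.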

Additional observations from a re-analysis of the deposited data

Results flagged for a closer look

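In the 36 combinations of a tested gene and one side of the ELF3 or ELF4 loss comparisons, 2 libraries stood apart from the rest of their side; chance flags about 1 in 20 such groups. RVE8 had 3.02 CPM in Col-0 27 °C replicate 1, while the other 4 Col-0 and ELF4-ox libraries had 0.937 to 1.38 CPM. RVE7 had 0.495 CPM in ELF3-ox 12 °C, while the other 5 Col-0 and ELF3-ox libraries, all at 22 or 27 °C, had 2.92 to 5.50 CPM.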

How the results depend on the processing

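The count of members called at 27 °C was 5 or 6, except 2 without title prefix 177, a fit with fewer libraries. At 12 °C it was 3 with no title prefix term, and 0 or 1 leaving out each 12 °C library. For loss of ELF3 it was 3 or 4 leaving out each library, 5 on leaving out both libraries poor in root markers, 1 for elf3-1 against Col-0 alone and 0 for elf3-1 X ELF4-ox against ELF4-ox alone. For loss of ELF4 it was 0 leaving out each library, 3 with DESeq2 and 2 where the title prefix was no term; leaving out both libraries poor in root markers gave 3; the cause was not tested. The other 6 comparisons had 0 member calls in all alternatives run; their reported fits called 0 to 6 loci in all, so this says nothing about stability. Calls over all loci ranged more widely: for loss of ELF3, 919 with DESeq2 and 203 to 506 leaving out 1 library, where the reported fit had 602; for 12 °C, 5469 with no title prefix term and 337 to 789 leaving out 1 library, where it had 1192. Signs turned for CCA1 at 27 °C without prefix 178 (0.054), for RVE4 at 12 °C without BdELF3-ox 12 °C (−0.21 to 0.51 leaving out each 12 °C library), and for CCA1 after loss of ELF3 without elf3-1 22 °C (0.34), without Col-0 22 °C (0.43; −1.28 to 0.43 leaving out each library) and for elf3-1 against Col-0 alone (0.47). Of the values given as ranges, 28 of 163 recomputations turned sign for 12 °C and the loss comparisons and 57 of 657 for the other comparisons, with no call among them. CCA1 had a peak in 6 lists with 1000 peaks kept and in 23 with all peaks; RVE7 had 12 and 20, and with all peaks the other 8 members had 19 to 22, so RVE7 no longer led. Leaving out peaks that overlap a kept INPUT peak changed no member's count. No paired analysis was possible because the labels call every sample single and replicate numbers are only names, so no replicate block was fitted; the line term already sets 27 against 22 °C within lines. Protein and promoter sequences were not used here. Few reads limit CCA1, RVE3 and LHY.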
